A study of Mus musculus with 9 samples.

Results

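Cadherins and claudins, the adhesion proteins of adherens junctions and tight junctions, were examined as 48 genes of the 33212 in a table of gene counts from αTC1 cells. The members are all genes whose symbol is Cdh or Cldn followed by a number, which gives 23 cadherins and 25 claudins, and genes at 0 were kept. αTC1 is a glucagon-producing line derived from a mouse pancreatic alpha cell tumour, grown here in low-glucose DMEM. Poly-A RNA was sequenced after 7 days with 4 µM EPZ011989 (n = 4 libraries) or after 7 days with DMSO, the solvent (n = 5 libraries). EPZ011989 inhibits EZH2, the enzyme of Polycomb repressive complex PRC2 that methylates lysine 27 of histone H3, and the comparison asks how αTC1 transcripts change under it. All libraries come from 1 cell line. The labels call them biological replicates but do not name separate cultures. The p-values therefore rest on library-to-library spread, which may be technical.

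Cadherins span the membrane and bind cadherins of the neighbouring cell in a calcium-dependent way. Classical cadherins (type I, such as E-cadherin and N-cadherin, and type II, many of them neuronal or mesenchymal) hold catenins on their inner side, which link them to actin. Atypical cadherins lack that catenin-binding tail or use other partners. Claudins cross the membrane in tight junctions, where barrier-forming members seal the space between cells and channel-forming members let selected ions pass, and ZO proteins anchor them inside the cell. In islets, E-cadherin and N-cadherin hold endocrine cells together.

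Library depth lay between 60274140 and 74651782 counts, and levels are given as CPM, a gene's count scaled to a common library size with TMM factors. The first principal component held 58.0% of the variance and separated the groups. On the second, with 10.9%, EPZ011989 replicates 2 and 4 lay at opposite ends (50.5 and -39.8). Since these are bulk libraries, a change in the share of cells that express a gene and a change in RNA per cell cannot be told apart. The labelled cell type was checked on 11 alpha cell markers, all of which were tested. They summed to 21593 to 29905 CPM in the EPZ011989 libraries and 26109 to 28749 CPM in the DMSO libraries, and Gcg, which encodes glucagon, averaged 18633 ± 2338 CPM with EPZ011989 and 19280 ± 804 CPM with DMSO (SD, n = 4 and n = 5).

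Of the 48 members, 37 had a count in at least 1 EPZ011989 library and 23 in at least 1 DMSO library. A total of 11 members were at 0 in all 9 libraries (Cdh4, Cdh8, Cdh17, Cldn4, Cldn6, Cldn8, Cldn13, Cldn14, Cldn17, Cldn18 and Cldn19). A further 22 were too low to be tested, none with more than 27 counts in a library, and 15 passed the filter on low counts (11 cadherins and 4 claudins). Of the 15, 8 had higher levels with EPZ011989, 1 had a lower level and 6 did not pass at an adjusted p under 0.05 (edgeR quasi-likelihood test, Benjamini-Hochberg adjustment over 14754 genes). Over all genes tested 24.1% were called, 16.2% as higher and 7.96% as lower. Libraries of the 2 groups were fully apart for 8 members in the higher direction and 1 in the lower, against 16.1% and 8.77% of all genes tested. At least 2-fold differences were called for 6 members in the higher direction (8.69% of all genes tested) and for 0 in the lower direction (0.291%). No tested member was lower by 2-fold at an unadjusted p under 0.05 either, nor in DESeq2. The filter let Cdh23 pass through its EPZ011989 libraries alone. The other 14 passed on their DMSO libraries, and of these Cdh9 did not pass on its EPZ011989 libraries. The median log2 fold change was 0.35 over the 15 members and 0.030 over all genes tested.

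Genes of different levels are called at different rates, so the members were also set beside genes of like level. Of 4 tested members under 1 CPM, 2 were higher, where 20.8% of genes at that level were higher. Between 1 and 10 CPM 3 of 5 were higher (33.4% of genes), and between 10 and 100 CPM 2 of 4 were higher and 1 lower (11.7% and 10.2% of genes). At 100 CPM or more 1 of 2 was higher (4.55% of genes). Of all calls 67.0% were higher, and upper-quartile scaling raised that share to 77.9% while the member calls were again 8 higher and 1 lower.

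**Figure D1:**
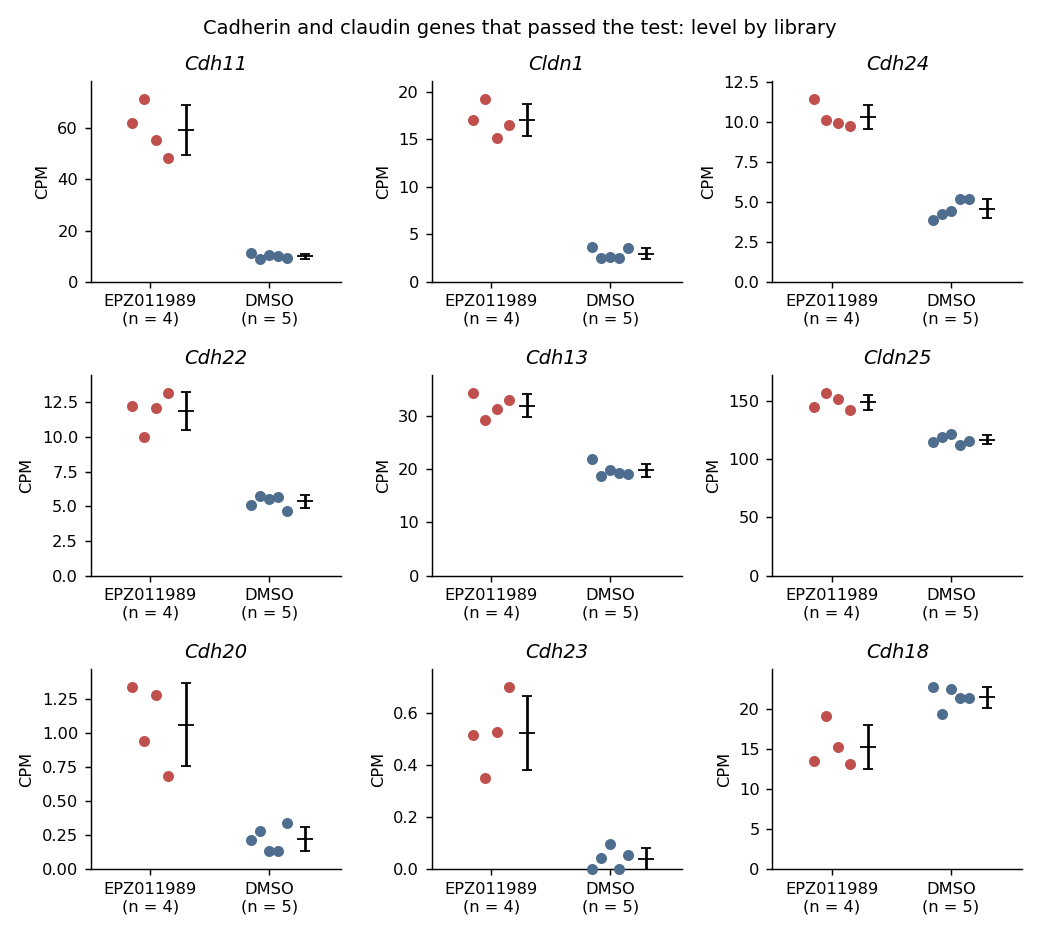
Level (CPM) of the 9 members that passed the test, 1 panel per gene, with EPZ011989 libraries (n = 4) left of DMSO libraries (n = 5). Points are libraries, and the bar beside each group is its mean ± SD. In 8 panels every EPZ011989 point is above every DMSO point, and in the Cdh18 panel every EPZ011989 point is below.

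Of 13 type II classical cadherins 7 were tested, and 4 of these were higher (Cdh11, Cdh24, Cdh22 and Cdh20) and 1 lower (Cdh18), where 16.2% of all genes tested were higher and 7.96% lower. Cdh11, also called OB-cadherin and known from mesenchymal and bone-forming cells (chr8:102632095-102785642, GRCm38, minus strand), was at 62.0, 71.3, 55.4 and 48.3 CPM in the EPZ011989 libraries, against 11.3, 8.97, 10.3, 10.2 and 9.13 CPM in the DMSO libraries. The lowest EPZ011989 library was several-fold above the highest DMSO library. Mean levels were 59.2 ± 9.77 CPM with EPZ011989 and 9.99 ± 0.948 CPM with DMSO (SD, n = 4 and n = 5), a log2 fold change of 2.57 ± 0.12 (SE), or 5.93-fold, with an adjusted p of 4.21e-07 (edgeR). Cdh11 ranked 9 by log2 fold change in the set of 9344 genes that averaged 10 CPM or more.

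Cdh24, a type II cadherin that binds catenins (chr14:54631231-54641364), was at 11.4, 10.1, 9.94 and 9.71 CPM with EPZ011989, against 3.88, 4.21, 4.43, 5.17 and 5.19 CPM with DMSO. Cdh22, a cadherin first described in pituitary and brain (chr2:165111507-165234853), was at 12.3, 9.98, 12.1 and 13.2 CPM with EPZ011989, against 5.12, 5.75, 5.52, 5.67 and 4.70 CPM with DMSO. Neither gene's groups overlapped, and the EPZ011989 libraries of both were close to each other. The log2 fold changes were nearly the same, 1.17 ± 0.12 (SE) for Cdh24 with an adjusted p of 4.05e-05 and 1.15 ± 0.11 for Cdh22 with an adjusted p of 3.18e-05 (edgeR). Cdh20, known from the neural tube and neural crest (chr1:104768529-104995481), was much lower, at 1.34, 0.943, 1.28 and 0.688 CPM with EPZ011989, against 0.217, 0.280, 0.138, 0.135 and 0.343 CPM with DMSO. Its groups did not overlap either (log2 fold change 2.24 ± 0.39 SE, adjusted p = 0.00169, edgeR).

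Cdh18, a cadherin of the central nervous system (chr15:22549022-23474418), was the only tested member called lower. It was at 13.5, 19.1, 15.2 and 13.1 CPM with EPZ011989, against 22.7, 19.4, 22.4, 21.3 and 21.4 CPM with DMSO. The groups did not overlap, but EPZ011989 replicate 2 at 19.1 CPM lay just under the lowest DMSO library at 19.4 CPM. Mean levels were 15.2 ± 2.74 CPM with EPZ011989 and 21.4 ± 1.31 CPM with DMSO, a log2 fold change of -0.49 ± 0.12 (SE) with an adjusted p of 0.00966 (edgeR). With the replicate number added to that test as a block, the adjusted p was 0.0645 and Cdh18 was not called.

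The promoters of the 7 called members that the RefSeq table holds are shown because EZH2 acts on chromatin, and PRC2 in mammals is known to sit at promoters rich in CpG. No chromatin was measured here. The windows hold the 250 bases before the RefSeq gene start on GRCm38.p6, written 5′ to 3′ on the gene's strand, with each CpG (the motif CG, which reads the same on both strands) in capitals. The Cdh18 and Cdh22 windows belong to RefSeq starts inside the gene spans given above. The Cdh18 window thus lies wholly, and the Cdh22 window partly, within its gene span. The Cldn1 window meets its gene span in its last bases only.
Cdh22 promoter, chr2:165234738-165234987, minus strand: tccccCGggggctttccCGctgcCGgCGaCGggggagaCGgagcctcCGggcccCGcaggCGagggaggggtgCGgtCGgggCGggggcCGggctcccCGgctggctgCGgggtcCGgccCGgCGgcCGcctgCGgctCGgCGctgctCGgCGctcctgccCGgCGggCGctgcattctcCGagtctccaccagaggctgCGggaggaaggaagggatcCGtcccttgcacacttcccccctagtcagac
Cdh24 promoter, chr14:54641365-54641614, minus strand: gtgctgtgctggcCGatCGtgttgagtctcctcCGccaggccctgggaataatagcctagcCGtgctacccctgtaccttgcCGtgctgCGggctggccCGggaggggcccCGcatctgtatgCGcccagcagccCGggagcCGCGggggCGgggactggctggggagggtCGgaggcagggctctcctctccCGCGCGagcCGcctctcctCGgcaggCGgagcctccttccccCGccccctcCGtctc
Cldn1 promoter, chr16:26371840-26372089, minus strand: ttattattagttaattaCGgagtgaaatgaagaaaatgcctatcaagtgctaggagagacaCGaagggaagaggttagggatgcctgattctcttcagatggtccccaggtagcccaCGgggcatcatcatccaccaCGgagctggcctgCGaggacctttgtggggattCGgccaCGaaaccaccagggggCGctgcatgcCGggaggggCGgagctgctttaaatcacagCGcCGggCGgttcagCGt
Cdh20 promoter, chr1:104768270-104768519, plus strand: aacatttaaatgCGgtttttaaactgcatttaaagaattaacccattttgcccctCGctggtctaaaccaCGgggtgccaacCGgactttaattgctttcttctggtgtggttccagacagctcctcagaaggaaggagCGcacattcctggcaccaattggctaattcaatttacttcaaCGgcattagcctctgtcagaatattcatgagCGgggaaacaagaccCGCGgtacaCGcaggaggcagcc
Cdh18 promoter, chr15:23036213-23036462, plus strand: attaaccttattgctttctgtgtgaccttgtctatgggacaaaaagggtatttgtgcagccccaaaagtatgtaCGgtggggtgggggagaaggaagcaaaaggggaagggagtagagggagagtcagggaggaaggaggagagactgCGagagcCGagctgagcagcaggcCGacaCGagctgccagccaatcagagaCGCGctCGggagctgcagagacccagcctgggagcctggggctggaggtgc
Cldn25 promoter, chr16:58727660-58727909, plus strand: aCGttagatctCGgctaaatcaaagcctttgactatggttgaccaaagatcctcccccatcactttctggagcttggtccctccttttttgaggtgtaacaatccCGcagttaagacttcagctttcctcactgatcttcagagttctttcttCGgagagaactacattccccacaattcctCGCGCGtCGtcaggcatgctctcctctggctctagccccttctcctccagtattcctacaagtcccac
Cdh23 promoter, chr10:60696491-60696740, minus strand: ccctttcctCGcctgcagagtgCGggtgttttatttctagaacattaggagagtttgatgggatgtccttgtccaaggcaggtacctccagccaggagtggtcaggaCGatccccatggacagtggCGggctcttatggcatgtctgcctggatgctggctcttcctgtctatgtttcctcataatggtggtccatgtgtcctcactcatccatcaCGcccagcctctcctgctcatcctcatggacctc

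Cdh22 had 30 CpG in its window, Cdh24 22, Cldn1 14, Cdh20 10, Cdh18 and Cldn25 8 each and Cdh23 5. Over all 32851 RefSeq windows the median was 6 CpG and the quartiles were 2 and 16. At least 30 CpG stood in 5.94% of windows, at least 22 in 14.8%, at least 14 in 29.4%, at least 10 in 37.8%, at least 8 in 43.0% and at least 5 in 55.6%. Cldn1, Cdh20 and Cdh23 had larger log2 fold changes than Cdh22 and Cdh24 and fewer CpG. Cldn25 and Cdh18 had smaller ones, also with fewer CpG. The Cdh23 fold change rests on very few DMSO counts. A relation between CpG number and fold change was not tested. In all, 34 of the 48 members had a window in the RefSeq table. Windows of members not called or not tested ran from 0 CpG in Cdh26 to 22 in 1 window of Cldn10. Cdh8, at 0 in all libraries, had 20, so many CpG were not particular to the called members.

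The other type II cadherins did not pass the test or were not tested. Cdh10 averaged 1.00 ± 0.395 CPM with EPZ011989 and 1.08 ± 0.299 CPM with DMSO (log2 fold change -0.10 ± 0.32 SE, adjusted p = 0.867, edgeR). Cdh9 had 0, 0, 12 and 29 counts with EPZ011989 and 36, 7, 15, 22 and 29 counts with DMSO, which overlap (log2 fold change -1.16 ± 1.02 SE, adjusted p = 0.481, edgeR). The antisense gene Gm49127 overlaps exons of Cdh9. Both are cadherins of brain circuits. Cdh5, the VE-cadherin of endothelial cells, was at 18, 15, 27 and 8 counts in the EPZ011989 libraries and at 0 in all 5 DMSO libraries. The groups thus did not overlap at a very low level, and its EPZ011989 mean was at least 1.31-fold higher than a floor of 12 counts per DMSO library, the most that a count of 0 allows. Cdh5 missed the filter, but it was called as higher in all 4 alternatives that tested it (adjusted p 1.28e-05 in DESeq2, 0.00636 in edgeR with no filter, and 0.00662 and 0.0133 in edgeR without EPZ011989 replicate 4 and without replicates 2 and 4). In both of the last it passed the filter through EPZ011989 libraries alone, once the lowest of them had been left out. Cdh6, Cdh7, Cdh12 and Cdh19 had 27, 5, 13 and 11 counts in all EPZ011989 libraries together, against 0, 0, 5 and 21 in all DMSO libraries.

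**Figure D2:**
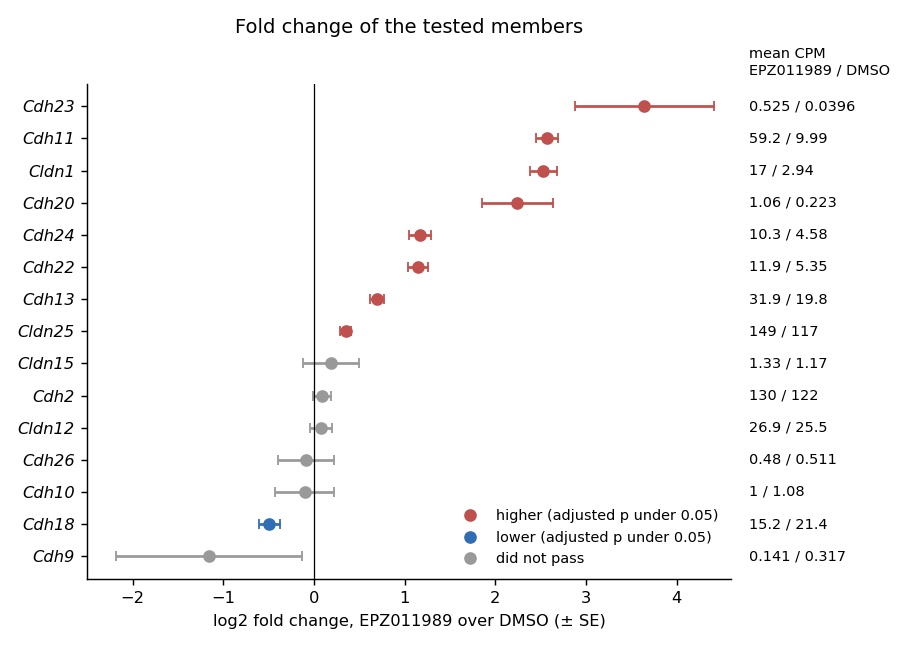
Log2 fold change of EPZ011989 over DMSO (x axis) for the 15 tested members in order of size, with bars of ± 1 SE, colours for the call and mean CPM of each group at the right. Cdh23, Cdh11, Cldn1 and Cdh20 lie above 2, Cdh2 and Cldn12 lie near 0, and Cdh18 at -0.49 is the called member below 0.

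Type I classical cadherins were represented by N-cadherin. Cdh2, which encodes it (chr18:16588877-16809246), was at 136, 145, 133 and 106 CPM with EPZ011989, against 132, 117, 131, 122 and 110 CPM with DMSO. The groups overlapped, and EPZ011989 replicates 2 and 4 held both the highest and the lowest of the 9 values. The log2 fold change was 0.089 ± 0.10 (SE, adjusted p = 0.570, edgeR). Cdh1, which encodes E-cadherin, had 4 counts in 1 EPZ011989 library and 0 in every other library of either group. At these depths the floor for a gene at 0 was 0.158 to 0.203 CPM. Cdh3, the P-cadherin gene, lies 46.1 kb from Cdh1 on chromosome 8 with 1 protein-coding gene between them. Cdh3 had 13 counts over the EPZ011989 libraries and 0 over the DMSO libraries. Cdh15 (M-cadherin of muscle) had 26 with EPZ011989 and 0 with DMSO, and Cdh4 (R-cadherin) was at 0 throughout. These missed the filter, and with no filter Cdh1, Cdh3 and Cdh15 had adjusted p of 0.262, 0.142 and 0.0724 in edgeR.

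Among the 5 atypical cadherins 3 were tested, and Cdh13 and Cdh23 were higher (16.2% of all genes tested). Cdh23 passed the filter through its EPZ011989 libraries alone. Cdh13, T-cadherin, which is held by a lipid anchor in place of a membrane span and binds adiponectin (chr8:118283733-119324921), was at 34.3, 29.1, 31.3 and 32.9 CPM with EPZ011989, against 21.9, 18.6, 19.8, 19.3 and 19.1 CPM with DMSO. The groups did not overlap, and the change was smaller than those of the type II genes that rose (log2 fold change 0.69 ± 0.08 SE, 1.62-fold, adjusted p = 9.41e-05, edgeR). Cdh23, a long cadherin of the tip links of inner ear hair cells (chr10:60302748-60696490), had 39, 25, 40 and 50 counts with EPZ011989, against 0, 3, 7, 0 and 4 counts with DMSO. It did not overlap between the groups (adjusted p = 0.00509, edgeR), but the DMSO mean of 0.0396 CPM was below the floor, so the fitted log2 fold change of 3.65 ± 0.76 (SE) rests on very few DMSO counts. Cdh26 averaged 0.480 ± 0.0336 CPM with EPZ011989 and 0.511 ± 0.0741 CPM with DMSO (adjusted p = 0.880, edgeR). Cdh16, the cadherin of kidney, had 5 counts over the EPZ011989 libraries and 4 over the DMSO libraries.

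Levels of different genes were compared per kilobase of exon (CPM per kb). By that measure Cdh2 was the most abundant cadherin in both groups, at 16.1 with EPZ011989 and 15.2 with DMSO. The summed level of all 23 cadherins was 35.8 ± 3.26 CPM per kb with EPZ011989 and 25.9 ± 1.49 with DMSO (SD, n = 4 and n = 5), with a range of 31.4 to 39.0 over EPZ011989 libraries that lay above the 24.3 to 27.5 over DMSO libraries. Cdh2 made up 44.9 ± 2.07% of the sum with EPZ011989 and 58.4 ± 1.39% with DMSO, although its own level overlapped between the groups. Cdh11 made up 18.5 ± 1.5% with EPZ011989 and 4.32 ± 0.191% with DMSO. Cdh18 made up 9.30 ± 1.15% with EPZ011989 and 18.1 ± 0.710% with DMSO. Cdh11 thus stood second in the EPZ011989 libraries, at 6.65 CPM per kb against 3.34 for Cdh18, and Cdh18 stood second in the DMSO libraries, at 4.70 against 1.12 for Cdh11. Cdh22 and Cdh24 in the EPZ011989 libraries, at 3.21 ± 0.365 and 2.95 ± 0.219 CPM per kb, lay within the spread of Cdh18 at 3.34 ± 0.603.

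**Figure D3:**
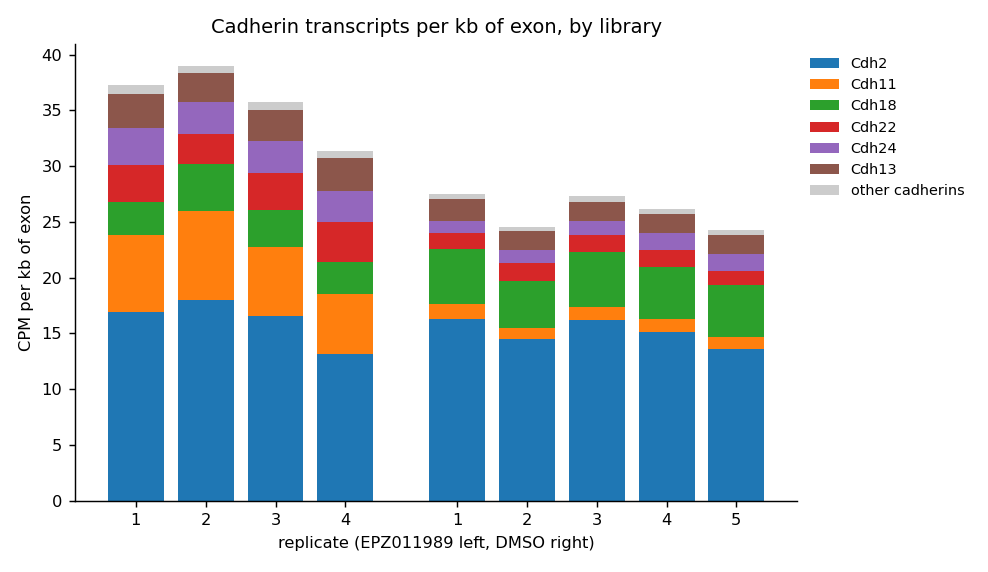
Summed level of the cadherins (CPM per kb of exon) in each library, 1 stacked bar per library, with EPZ011989 replicates left of DMSO replicates and colours for genes. The Cdh11 segment is larger in every EPZ011989 bar (18.5% of the sum on average) than in the DMSO bars (4.32%), while the Cdh2 segment is of like height in both groups.

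Few claudins were expressed. Of 25, 8 were at 0 in all libraries and 13 were too low to test. Of the 4 tested, Cldn1 and Cldn25 were higher (all genes tested: 16.2% higher and 7.96% lower). None was lower, also none at an unadjusted p under 0.05 in edgeR and none in DESeq2. Cldn1, a barrier-forming claudin needed for the skin barrier (chr16:26356642-26371841), was at 17.1, 19.2, 15.2 and 16.5 CPM with EPZ011989, against 3.61, 2.48, 2.56, 2.50 and 3.54 CPM with DMSO. Every EPZ011989 library was far above every DMSO library. Mean levels were 17.0 ± 1.68 CPM with EPZ011989 and 2.94 ± 0.586 CPM with DMSO, a log2 fold change of 2.53 ± 0.15 (SE), or 5.78-fold, with an adjusted p of 1.21e-06 (edgeR).

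Cldn25 was the most abundant claudin per kb, and the gene under this symbol is named Cldnd1, a claudin domain protein, in GENCODE and RefSeq (chr16:58727910-58734251). It was at 145, 157, 151 and 143 CPM with EPZ011989, against 115, 119, 122, 112 and 116 CPM with DMSO. The groups did not overlap, and the change was small (log2 fold change 0.35 ± 0.06 SE, 1.27-fold, adjusted p = 0.00118, edgeR). Cldn12, linked to calcium uptake across epithelia, was at 25.8, 34.8, 23.5 and 23.6 CPM with EPZ011989, against 25.5, 23.9, 28.9, 25.1 and 24.0 CPM with DMSO. These overlapped, with EPZ011989 replicate 2 highest (log2 fold change 0.079 ± 0.12 SE, adjusted p = 0.712, edgeR). Leaving that library out turned the sign (-0.076). Cldn15, a channel-forming claudin of the gut, averaged 1.33 ± 0.229 CPM with EPZ011989 and 1.17 ± 0.418 CPM with DMSO (log2 fold change 0.19 ± 0.30 SE, adjusted p = 0.727, edgeR).

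The summed level of the claudins was 69.0 ± 3.76 CPM per kb with EPZ011989 and 52.9 ± 1.78 with DMSO. Cldn25 made up 84.2 ± 1.44% of it with EPZ011989 and 86.2 ± 0.743% with DMSO, while Cldn1 made up 5.09 ± 0.363% with EPZ011989 and 1.15 ± 0.243% with DMSO. Cldn3 and Cldn7, known from epithelia, and Cldn5, known from vessels, had 7, 4 and 5 counts over all EPZ011989 libraries and 0 over all DMSO libraries. Cldn10 had 31 counts over EPZ011989 libraries and 9 over DMSO libraries. Cldn22, whose exon lies within an antisense exon of Wwc2, had 27 counts with EPZ011989 and 0 with DMSO, and Cldn26, which the annotation names Tmem114, had 24 with EPZ011989 and 0 with DMSO. Cldn2, Cldn9, Cldn11, Cldn16, Cldn20, Cldn23 and Cldn24 had 4 to 17 counts with EPZ011989 and 0 to 17 with DMSO.

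Several members sit side by side in the genome. On chromosome 8, Cdh11 stands between Cdh8, 3216 kb away, and Cdh5, 1316 kb away, with no protein-coding gene between them. Cdh11 was higher, Cdh8 was at 0 and Cdh5 was at 0 in DMSO libraries and low in EPZ011989 libraries. On chromosome 15, Cdh6, Cdh9, Cdh10, Cdh12 and Cdh18 follow each other with no protein-coding gene between them. Of these Cdh9, Cdh10 and Cdh18 were tested, and Cdh18 was called. Cldn1 lies 91.3 kb from Cldn16, which had 5 counts in each group in all.

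Proteins that work with cadherins and claudins were described by 6 lists, which together hold 117 genes. Of these 77 were tested, and 24 were higher and 2 lower (all genes tested: 16.2% and 7.96%). Without EPZ011989 replicate 2, 9 partner genes were lower, and over all genes 2377 in place of 1174. Of the 24, 6 passed the filter through EPZ011989 libraries alone (Pkp1, Fat2, Ret, Mmp2, Mmp3 and Mmp9). Catenins and nectins were 16 genes with 15 tested, of which 4 were higher and 1 lower (median log2 fold change 0.15). Ctnna1, alpha-catenin, which ties the cadherin complex to actin, was at 21.3, 16.9, 20.3 and 20.01 CPM with EPZ011989, against 3.41, 2.55, 2.38, 2.14 and 3.21 CPM with DMSO. The groups lay far apart (log2 fold change 2.84 ± 0.15 SE, 7.15-fold, adjusted p = 6.99e-07, edgeR). Of its exons 95 bases overlap the antisense gene Lrrtm2. Ctnnb1, beta-catenin, averaged 409 ± 75.0 CPM with EPZ011989 and 446 ± 9.50 CPM with DMSO (log2 fold change -0.12 ± 0.11 SE, adjusted p = 0.474, edgeR). Without EPZ011989 replicate 2 it was called lower (-0.25, adjusted p = 0.0176, where leaving out each library in turn gave 0.0176 to 0.709). Ctnnd1, p120-catenin, which keeps cadherins at the surface, averaged 82.6 ± 6.29 CPM with EPZ011989 and 75.1 ± 5.35 CPM with DMSO (adjusted p = 0.233, edgeR).

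Nectin1, listed as Pvrl1 in the counts, encodes an adhesion protein that starts junctions beside cadherins and averaged 7.53 ± 1.29 CPM with EPZ011989 and 0.577 ± 0.152 CPM with DMSO (log2 fold change 3.71 ± 0.21 SE, adjusted p = 1.04e-06, edgeR). Nectin3, listed as Pvrl3, averaged 25.8 ± 4.01 CPM with EPZ011989 and 17.5 ± 1.72 CPM with DMSO (adjusted p = 0.00419, edgeR). Jup, plakoglobin, shared by adherens junctions and desmosomes, averaged 35.8 ± 8.35 CPM with EPZ011989 and 19.5 ± 3.01 CPM with DMSO (adjusted p = 0.0028, edgeR). All of these were higher. The gene called lower was Ctnnal1, an alpha-catenin relative named here after its values were seen, at 41.7 ± 4.88 CPM with EPZ011989 and 53.6 ± 3.82 CPM with DMSO (log2 fold change -0.36 ± 0.09 SE, adjusted p = 0.0136, edgeR).

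Of 15 desmosome genes 3 were tested, and 1 was higher (16.2% of all genes tested). The list summed to 194 to 221 CPM with EPZ011989 and 208 to 233 CPM with DMSO, nearly all of it from Pkp4, a plakophilin relative also found at other junctions, which averaged 210.1 ± 13.2 CPM with EPZ011989 and 223 ± 9.17 CPM with DMSO (adjusted p = 0.390, edgeR). No desmoglein or desmocollin gene had more than 19 counts in a library. Pkp1 (plakophilin) was higher, at 0.886 ± 0.583 CPM with EPZ011989 and 0 in every DMSO library, at least 5.04-fold above the floor (adjusted p = 0.0012, edgeR), and it passed the filter through its EPZ011989 libraries alone. None was lower, also none at an unadjusted p under 0.05 in edgeR and none in DESeq2.

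Tight junction partners of claudins were 28 genes, of which 22 were tested (median log2 fold change 0.41). Of the 22, 7 were higher, where 16.2% of all genes tested were higher and 7.96% lower. No gene of the list was lower in edgeR, none at an unadjusted p under 0.05 there and none in DESeq2. Magi1, a junction scaffold, averaged 12.9 ± 1.92 CPM with EPZ011989 and 4.66 ± 0.616 CPM with DMSO (log2 fold change 1.47 ± 0.13 SE, adjusted p = 2.31e-05, edgeR). Cgn, cingulin of the tight junction plaque, averaged 8.04 ± 1.16 CPM with EPZ011989 and 3.68 ± 0.671 CPM with DMSO (1.13 ± 0.16 SE, adjusted p = 4.28e-04). Pard3, a polarity protein, averaged 1.92 ± 0.419 CPM with EPZ011989 and 0.654 ± 0.110 CPM with DMSO (1.55 ± 0.24 SE, adjusted p = 7.41e-04). The libraries of the 2 groups were fully apart for Magi1, Cgn and Pard3. Tjp1, which encodes ZO-1, averaged 82.8 ± 23.2 CPM with EPZ011989 and 98.7 ± 15.3 CPM with DMSO (adjusted p = 0.347, edgeR), and was called lower when EPZ011989 replicate 2 was left out (-0.46, adjusted p = 0.0199, where leaving out each library in turn gave 0.0199 to 0.568). Ocln, occludin, had at most 20 counts in a library and was not tested.

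Other cadherin superfamily genes, such as Fat, Celsr, calsyntenin and protocadherin genes, were 30, of which 29 were in the counts. Of these 18 were tested, and 6 were higher and 1 lower (all genes tested: 16.2% and 7.96%). The median log2 fold change of the list was 0.16. Celsr2, a planar polarity cadherin, averaged 3.34 ± 0.518 CPM with EPZ011989 and 0.840 ± 0.315 CPM with DMSO (1.98 ± 0.27 SE, adjusted p = 3.07e-04, edgeR). The calsyntenins Clstn1 and Clstn3, known from neurons, had log2 fold changes of 0.61 ± 0.06 and 0.58 ± 0.07 (SE), with adjusted p of 3.18e-05 and 1.41e-04. Fat2 averaged 0.673 ± 0.298 CPM with EPZ011989 and was at 0 in every DMSO library, at least 3.83-fold above the floor (adjusted p = 7.55e-04), and it too passed the filter through its EPZ011989 libraries alone. The gene called lower, again named after its values were seen, was the protocadherin Pcdh10, at 115 ± 15.8 CPM with EPZ011989 and 188 ± 21.0 CPM with DMSO (-0.71 ± 0.11 SE, adjusted p = 8.10e-04).

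Transcription factors that repress Cdh1 or drive epithelial genes were 16, of which 9 were tested (median log2 fold change 0.19). Of the 9, 2 were higher and none was lower (all genes tested: 16.2% and 7.96%). None had an unadjusted p under 0.05 in the lower direction in edgeR, and DESeq2 called 4 higher and 0 lower. Snai2, a repressor of Cdh1, averaged 20.2 ± 0.775 CPM with EPZ011989 and 13.5 ± 1.83 CPM with DMSO (log2 fold change 0.58 ± 0.10 SE, adjusted p = 0.00198, edgeR). Elf3, an epithelial activator, averaged 19.7 ± 5.05 CPM with EPZ011989 and 12.5 ± 1.14 CPM with DMSO (0.65 ± 0.16 SE, adjusted p = 0.014, edgeR), with overlapping groups. Without EPZ011989 replicate 3 Elf3 was not called (adjusted p = 0.0515, where leaving out each library in turn gave 1.21e-04 to 0.0515). The Cdh1 repressors Zeb1 and Zeb2 did not pass. Zeb1 averaged 51.4 ± 12.6 CPM with EPZ011989 and 45.1 ± 4.31 CPM with DMSO (adjusted p = 0.399), and Zeb2 averaged 7.26 ± 2.05 CPM with EPZ011989 and 9.26 ± 1.01 CPM with DMSO (adjusted p = 0.178). Zeb2 was called lower when EPZ011989 replicate 2 was left out (-0.56, adjusted p = 0.00625, where leaving out each library in turn gave 0.00625 to 0.302). Snai1 had at most 11 counts in a library.

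Markers of several other cell types were also higher with EPZ011989, and their part in the results was not tested. Over all genes tested 16.2% were higher and 7.96% lower. Fibroblast markers, which matter beside Cdh11, summed to 33.7 to 44.6 CPM in the EPZ011989 libraries and 7.44 to 10.3 CPM in the DMSO libraries. Of 12 such markers 8 were tested and 5 were higher (Col1a1, Pdgfra, Pdgfrb, Thy1 and Vim), 4 of them passing the filter through EPZ011989 libraries alone. Pdgfra averaged 27.6 ± 5.88 CPM with EPZ011989 and 7.29 ± 0.964 CPM with DMSO, and Thy1 averaged 3.28 ± 0.741 CPM with EPZ011989 and was at 0 in DMSO libraries, at least 18.6-fold above the floor. Col3a1, Dcn, Lum and Acta2 were not tested, with at most 37, 8, 5 and 3 counts in an EPZ011989 library and 0 in DMSO libraries. Endothelial markers, which matter beside Cdh5, summed to 5.76 to 6.64 CPM with EPZ011989 and 1.48 to 2.17 CPM with DMSO. Of 10 listed 6 were tested and 4 were higher, 2 of these 4 passing the filter through EPZ011989 libraries alone. None was at 0 throughout, but Kdr, Tie1 and Sox17 were at 0 in every DMSO library. Epithelial and ductal markers, which matter beside Cldn1, summed to 32.8 to 37.3 CPM with EPZ011989 and 19.7 to 25.6 CPM with DMSO, with 1 higher and 1 lower of 5 tested out of 10 listed. The defining epithelial marker Epcam and the ductal Cftr were at 0 in all libraries, and Krt8 and Krt18 had at most 5 and 4 counts in a library. Leukocyte markers summed to 5.69 to 7.14 CPM with EPZ011989 and 1.74 to 2.73 CPM with DMSO. Of 8 listed 4 were tested and 1 was higher, and it passed the filter through EPZ011989 libraries alone. Neural crest and Schwann markers, which matter beside Cdh20, summed to 28.6 to 32.1 CPM with EPZ011989 and 32.9 to 37.1 CPM with DMSO. Of the 4 tested out of 8 listed none was called in edgeR, with 1 higher and 1 lower at an unadjusted p under 0.05 and 1 lower in DESeq2, and Foxd3 was at 0.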

How the data were processed

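Of the 2 tables that the authors deposited, the gene counts (whole numbers, not normalized) were used and the normalized values were not. Poly-A capture is per the labels' protocols, and HISAT2, StringTie, DESeq2 and mm10 are named, without roles or versions, in the submitters' processing notes. Whether counting used strand is not given in the sources used here. A count of 1 was most frequent (3970 values), but 4 (3046) and 5 (2732) exceeded 2 (2108) and 3 (2160), so a step of about 4 counts per fragment was inferred for part of the fragments. The floor for a gene at 0 was set at 12 counts per library (3 fragments of 4 counts), and fewer counts per fragment would lower it. Floors cover counting error only.

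After filterByExpr and TMM scaling, all 9 libraries entered the robust quasi-likelihood test of edgeR 4.0.16 (R 4.3.3), which had treatment as its 1 term. P-values (two-sided) were adjusted over 14754 genes (Benjamini-Hochberg). Each SE was computed as the absolute log2 fold change over the root of F. Exon lengths, positions and overlaps come from GENCODE M21 on GRCm38, the assembly of mm10, and promoters from RefSeq on GRCm38.p6. The scripts were tested on simulated data. In all, 18 alternatives were run, among them DESeq2 1.42.0.

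Members and lists were chosen with earlier results of these data known. Each member that was called or averaged at least 5 CPM in a group was named with its value in every library, with up to 4 called genes of smallest p per partner list and 10 junction genes whether called or not. A gene that this rule takes is not reported here.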

Additional observations from a re-analysis of the deposited data

Results flagged for a closer look

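Of 70 groups of libraries examined over 35 named genes that were tested, 2 held a library far from the others, where chance gives about 1 in 20. The DMSO groups of Pkp1, Fat2 and Mmp3, at 0 in every library, have no ratio and could not be flagged. Ocln, which was not tested and had counts in DMSO replicate 3 alone, was not examined. Mmp2, a gelatinase, averaged 2.68 ± 0.317 CPM in EPZ011989 libraries and 0.0249 ± 0.0557 CPM in DMSO libraries, where replicate 3 alone had counts, so that its gap to the nearest library was the whole range of the group (a ratio of 1.0). Mmp9, another gelatinase, averaged 0.797 ± 0.371 CPM in EPZ011989 libraries and 0.0492 ± 0.0880 CPM in DMSO libraries, where the gap of replicate 1 to the nearest library was 0.789 of the range. The critical ratio for 5 libraries is 0.71. Both DMSO means lie under the floor of 12 counts per library. Cdh9, Cdh10, Cdh26 and Cldn15, tested but not called and under 5 CPM, were not among the 35 genes. In Cdh26 the EPZ011989 group had a ratio of 0.958, above the critical 0.829 for 4 libraries. Its replicate 1 was at 0.530 CPM and the others at 0.462 to 0.464 CPM. Ratios of Cdh9, Cdh10 and Cldn15 lay under the critical ones.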

How the results depend on the processing

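Member calls were 8 higher and 1 lower with RLE factors, upper-quartile factors and library size alone, 9 and 1 with no filter and with DESeq2 (Cdh5 in addition), 6 and 1 of 11 tested with at least 1 CPM in 4 libraries, and 7 and 1 of 12 tested on counts divided by 4. Leaving out each library gave 8 to 9 higher and 1 lower. The labels do not say whether same-numbered libraries share a culture. Their deviations from the group means correlated at -0.0985 to 0.0302, which cannot exclude pairing, since differences between single libraries could hide it. With the replicate number as a block, 1550 genes were higher and 471 lower, and of the members 7 were higher and 0 lower in edgeR (1 lower at an unadjusted p under 0.05). Cdh18 then had an adjusted p of 0.0645 (all alternatives 2.86e-04 to 0.0645) and Cdh23 of 0.0559 (2.07e-05 to 0.0559), while Elf3, Adam15 and Mmp3 had 0.0562, 0.0576 and 0.0629. Counts over all genes rested on single libraries, with 1861 to 2939 higher and 781 to 2377 lower when each was left out (2939 and 2377 without EPZ011989 replicate 2, 781 lower without replicate 3). Upper-quartile factors gave 776 lower. Partner genes were 22 to 26 higher and 1 to 9 lower without each library (9 without EPZ011989 replicate 2, 1 without replicate 3), and 6 lower without EPZ011989 replicates 2 and 4. Cldn12 changed sign, at -0.076 to 0.14 without each library and -0.047 without EPZ011989 replicates 2 and 4, never called. The cause was not tested. Depth limits all members under the floor.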

Other observations

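Proteases that cleave cadherins or claudins were 12 genes, of which 10 were tested (median log2 fold change 0.16). Of the 10, 4 were higher (all genes tested: 16.2% higher and 7.96% lower). None was lower after adjustment in edgeR, 1 was lower at an unadjusted p under 0.05, and DESeq2 called 4 higher and 0 lower. The secreted proteases among them were low. Mmp2 had 183, 223, 197 and 181 counts in the EPZ011989 libraries, against 0, 0, 9, 0 and 0 counts in the DMSO libraries (adjusted p = 1.34e-04, edgeR). Mmp3 had 34, 23, 26 and 11 counts with EPZ011989 and 0 in every DMSO library, at least 1.81-fold above the floor (adjusted p = 0.00207, edgeR). Mmp9 had 89, 24, 51 and 71 counts with EPZ011989, against 15, 0, 0, 0 and 3 counts with DMSO (adjusted p = 0.0143, edgeR). All 3 passed the filter through their EPZ011989 libraries alone. Adam15, a membrane-bound protease, was at 76.5 ± 12.7 CPM with EPZ011989 and 56.4 ± 3.72 CPM with DMSO (adjusted p = 0.0137 in edgeR, log2 fold change 0.44 ± 0.11 SE). Its groups overlapped, and it was not called without DMSO replicate 1, EPZ011989 replicate 1 or EPZ011989 replicate 4 (adjusted p 0.0513, 0.0683 and 0.0543, where leaving out each library in turn gave 9.67e-05 to 0.0683).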
